A study of Homo sapiens with 6 samples.

Results

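The 10 genes described here encode contractile and actin cytoskeleton proteins that serum response factor (SRF) is known to drive, together with SRF itself. They are the actins ACTA2 and ACTG2, the actin-binding proteins TAGLN, CNN1, CALD1 and VCL, the tropomyosins TPM1 and TPM2, the myosin light chain MYL9, and SRF. They were taken by symbol from gene tables of 39282 genes, and all 10 were found. The study depleted MEX3A, an RNA-binding protein with a ubiquitin ligase domain, by lentiviral short hairpin RNA in a pair of human ovarian tumour lines. PA-1 is labelled as an ovarian teratocarcinoma and TOV21G as a clear cell carcinoma of the ovary, and the lines were grown in different media. Each line gave 3 poly(A)-selected, strand-specific RNA-seq libraries: 1 with a scramble hairpin (sh-Ctrl, genotype label Scramble control) and 1 each with sh-MEX3A#1 and sh-MEX3A#2 (genotype label MEX3A knockdown), called hairpin 1 and hairpin 2 below. All 6 libraries therefore came from infected cells, including the controls, and the design text calls each depleted population a clone. Nothing in the labels says that libraries of a line were separate cultures. A p-value here reflects no more than how far these libraries spread. That spread may be technical, and it also holds any difference between hairpins 1 and 2.

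SRF binds the CArG box, a short A/T-rich element flanked by a pair of C and a pair of G bases. It is switched between gene programmes by its partners. Myocardin-related factors (MRTFA, MRTFB) are held in the cytoplasm by monomeric actin and enter the nucleus when actin polymerises, which turns on cytoskeletal and contractile genes. Ternary complex factors such as ELK1 act downstream of MAP kinases and direct SRF to immediate early genes such as FOS and EGR1. In smooth muscle and in myofibroblasts the contractile arm makes stress fibres rich in smooth muscle actin.

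The promoter windows below are shown because they hold pairs of CArG or CArG-like matches close to a transcription start. RefSeq promoter windows (build GRCh38.p14, 250 bases before to 50 bases after a start) were found for 8 of the 10 genes, in 14 windows. TAGLN and MYL9 were not matched. A CArG box stood in 2 of the 14 windows (14.3%), those of SRF and ACTG2, against 454 of 35116 windows (1.29%) over all genes. Each of these windows held 2 boxes, which was so in 11 of all windows (0.0313%). The motif reads the same on both strands, so each match was counted once. Matches with 1 of the 10 letters off were far commoner, in 5 of the 14 windows (35.7%) and in 17.9% of all windows. ACTA2 had a pair of these near matches and no full box. A match is a description of the letters and was not tested as a binding site. The 150 bases before the start are printed 5′ to 3′ in the direction of the gene, with full boxes (SRF, ACTG2) or near matches (ACTA2) in capitals.
SRF, chr6:43171119-43171268, plus strand: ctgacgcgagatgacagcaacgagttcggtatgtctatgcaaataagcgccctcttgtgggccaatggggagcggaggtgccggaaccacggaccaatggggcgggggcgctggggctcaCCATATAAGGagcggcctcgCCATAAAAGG
ACTG2, chr2:73892858-73893007, plus strand: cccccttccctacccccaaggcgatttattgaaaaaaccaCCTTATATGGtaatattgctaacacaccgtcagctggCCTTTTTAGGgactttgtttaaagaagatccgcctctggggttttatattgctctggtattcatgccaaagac
ACTA2, chr10:88952774-88952923, minus strand: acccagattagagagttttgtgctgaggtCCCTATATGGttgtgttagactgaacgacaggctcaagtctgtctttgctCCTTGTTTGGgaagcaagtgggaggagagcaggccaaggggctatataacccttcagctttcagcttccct

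**Figure D1:**
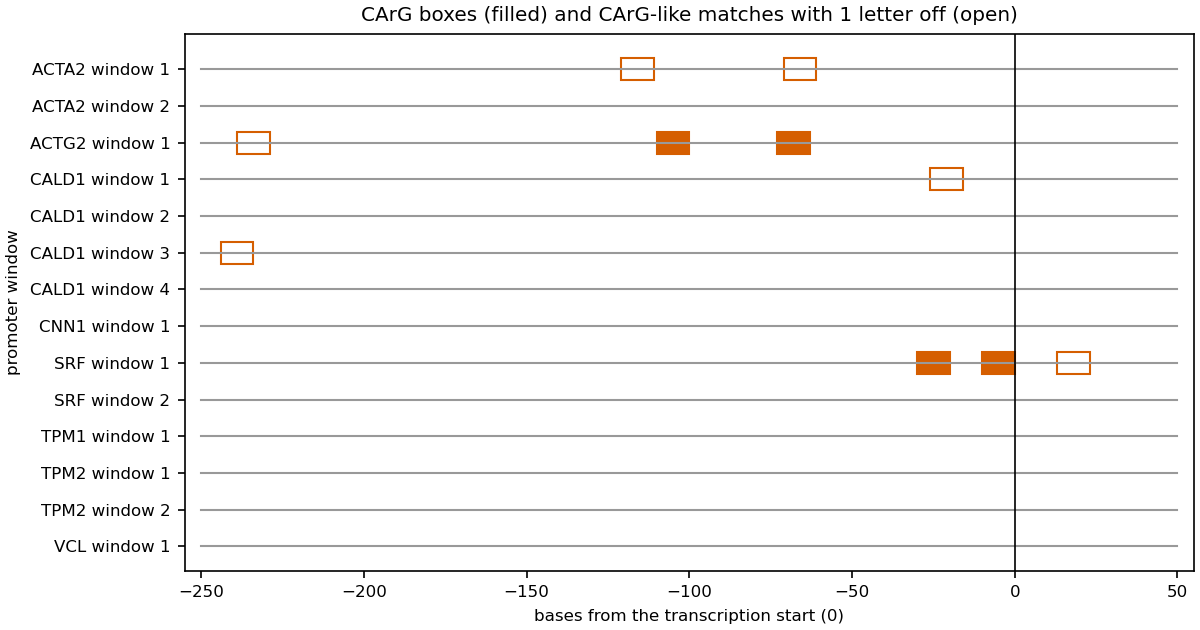
Position of CArG boxes (filled) and of matches with 1 letter off (open) in the 14 promoter windows of 8 genes, in bases from the transcription start. The 2 SRF boxes begin 30 and 10 bases before the start, the 2 ACTG2 boxes 110 and 73 bases before it, and the 2 ACTA2 near matches 121 and 71 bases before it.

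The libraries held between 14654628 and 19495162 expected counts (RSEM's estimate of reads per gene), and 16855 genes were kept by the low count filter, all 10 described here among them. ACTG2 passed it through 1 library with 23 counts. Levels are given as TPM, which is scaled per transcript length. Differences are given as log2 CPM, counts scaled to the TMM-adjusted library total with a prior count of 2, always against the sh-Ctrl of the same line. MEX3A was at 14.9 and 18.8 TPM with hairpins 1 and 2 in PA-1 against 47.1 TPM in the control. In TOV21G it was at 13.8 and 9.93 TPM against 23.8 TPM, so it was lower in all 4 hairpin libraries. PA-1 carried stem cell genes that fit its label (POU5F1 at 891 to 2395 TPM), and of the epithelial genes read beside them it had KRT8 (213 to 310 TPM), KRT18 (225 to 349 TPM) and CDH1 (1.08 to 1.96 TPM), with EPCAM at 0.11 to 0.17 TPM and KRT7 listed at 0. TOV21G had KRT8 (74.8 to 157 TPM), KRT18 (136 to 263 TPM) and CDH1 (0.54 to 1.26 TPM), with EPCAM at 9.24 to 23.1 TPM and KRT7 at 1.56 to 5.02 TPM.

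With hairpins against MEX3A the contractile genes tended to stand above the control, by amounts that differed between hairpins. In PA-1, 6 of the 10 genes (ACTA2, CNN1, TPM1, TPM2, CALD1 and VCL) were above the control with both hairpins, as were 33.8% of all genes tested, and 0 were below with both (34% of all genes). In TOV21G the count was 8 of 10, all but TPM2 and SRF, against a background of 31.3%, and 0 were below with both (31.9%). Some of the 8 lay within counting error there. The MYL9 ratios were 1.23 (95% exact counting interval 0.974 to 1.55) and 1.16 (0.918 to 1.47). With hairpin 1 TAGLN was at 1.21 (0.918 to 1.59) and ACTG2 at 2.03 (0.291 to 22.4). For ACTG2, TAGLN and CALD1 the TOV21G hairpin 2 difference was under 0.1 and changed sign when libraries were scaled by total counts alone. The genes above control in all 4 hairpin libraries were ACTA2, CNN1, TPM1, CALD1 and VCL, 5 of 10 against 14.3% of all genes, with the same exception for CALD1. CNN1 is among them through 4 against 3 counts in TOV21G hairpin 1 and a PA-1 hairpin 2 ratio of 1.03 (95% exact counting interval 0.757 to 1.42), both within counting error. Of the 10, 0 were below control in all 4 (15%). The median log2 difference of the 10 genes was 0.95 with hairpin 1 and 0.08 with hairpin 2 in PA-1, and 0.28 and 0.16 in TOV21G, where the median of all genes was 0 in each library. Their summed level was 1881 and 1300 TPM with hairpins 1 and 2 against 1164 TPM in PA-1, and 1759 and 1732 against 1331 TPM in TOV21G. The 2 hairpins of a line share 1 control library, so its error enters both differences. The PA-1 hairpin 1 median includes ACTG2, which passed the low count filter through that library.

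**Figure D2:**
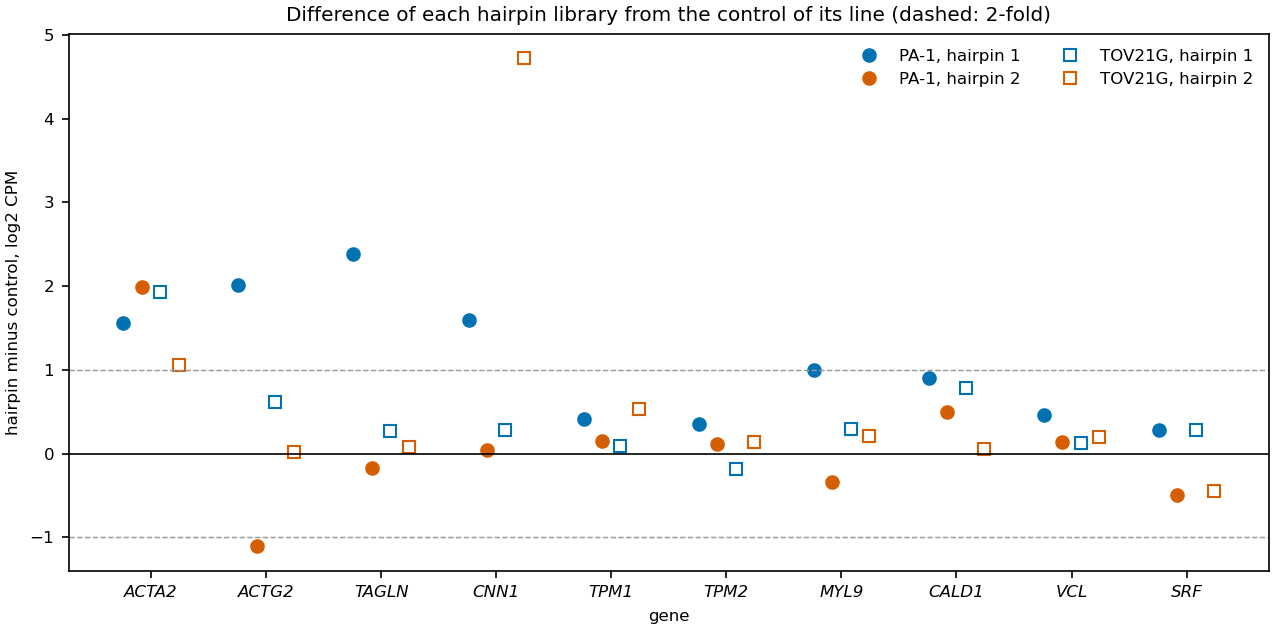
Log2 CPM of each hairpin library minus the control of its line for the 10 genes, with PA-1 as filled circles and TOV21G as open squares, hairpin 1 in blue and hairpin 2 in orange. All 4 ACTA2 points lie above the dashed 2-fold line, while CNN1 has its highest point, 4.72, in TOV21G with hairpin 2 alone.

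The quasi-likelihood test of edgeR, which takes its spread from the hairpins of each line, called 0 of the 10 genes in PA-1, in TOV21G, in the mean of both lines and in the difference between lines. The same test called 0% of all genes in each comparison. At an unadjusted p under 0.05 it listed 1 of the 10 genes, ACTA2, in each of the first 3 comparisons and 0 in the last. Over all genes that unadjusted list held 434 (2.57%), 1612 (9.56%), 1383 (8.21%) and 642 genes (3.81%). DESeq2 called 0, 0, 1 and 0 of the 10 genes, against 36 (0.214%), 215 (1.28%), 135 (0.801%) and 19 (0.113%) of all genes. Its single call was ACTA2 as higher in the mean of both lines, where 0.575% of all genes were called higher.

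ACTA2, the smooth muscle alpha actin of myofibroblasts and vascular smooth muscle, was higher in each hairpin library than in its control. In PA-1 it stood at 19.6 TPM without a MEX3A hairpin, 62.0 TPM with hairpin 1 and 74.8 TPM with hairpin 2. The TOV21G values were 55.9 TPM in the control against 236 and 112 TPM. The 3 libraries of each line kept the same order of control below both hairpins, and the larger value came from hairpin 2 in PA-1 and from hairpin 1 in TOV21G. Behind these levels lay 183, 562 and 903 expected counts in PA-1 and 579, 2176 and 1167 in TOV21G. The CPM ratios to control were 2.96 (95% exact counting interval 2.501 to 3.52) and 3.99 (3.40 to 4.70) in PA-1. In TOV21G they were 3.82 (3.48 to 4.19) and 2.08 (1.89 to 2.31), all covering counting error only. ACTA2 was the 1 gene of the 10 that was at least 2-fold higher with both hairpins in PA-1 (3.36% of all genes), in TOV21G (4.26%) and in all 4 hairpin libraries (0.451%, or 76 genes). At least 2-fold lower were 0 of the 10, against 0.682% of all genes in PA-1, 3.36% in TOV21G and 0.0593% in all 4 hairpin libraries. On the log2 TPM scale the smallest of the 4 differences, TOV21G with hairpin 2, was 0.99, just under 2-fold.

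The fitted ACTA2 change was 1.80 on the log2 scale (SE 0.48) in PA-1 and 1.56 (SE 0.47) in TOV21G. Neither passed edgeR after Benjamini-Hochberg adjustment (adjusted p = 1 and 0.462). The mean of both lines was 1.68 (SE 0.34, unadjusted p = 0.00376, adjusted p = 0.547 by edgeR). DESeq2 gave 1.68 (SE 0.36) with an adjusted p of 0.00135, and 0.129 and 0.0819 in PA-1 and TOV21G alone. Without the TOV21G hairpin 1 library, edgeR gave 1.43 with an adjusted p of 0.0392. Over the 10 alternatives of this comparison the change stayed between 1.43 and 1.86, with adjusted p from 0.00135 to 1.00 by edgeR or DESeq2, and 2 of them passed. Each of these changes has the same sign as the 4 single differences, and whether it passed differed between the tools and with the TOV21G hairpin 1 library.

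ACTA2 lies on chromosome 10 (88935074 to 88991339, GRCh38, minus strand, GENCODE 29) and shares bases with 3 genes on the other strand. They are STAMBPL1 (40080 shared bases), ACTA2-AS1 (5747) and FAS (758). The library kit keeps strand, but the strand setting of the counting is not given in the sources used here. ACTA2-AS1, its antisense RNA, held 0 counts in the PA-1 control against 5.09 and 4.11 with the hairpins, and 3.09 against 21.9 and 5.2 in TOV21G. FAS, a death receptor known as a p53 target, was at 6.71 TPM in the PA-1 control against 12.8 and 16.5 TPM, and at 131 against 130 and 140 TPM in TOV21G. STAMBPL1 was at 7.87 against 6.45 and 7.70 TPM in PA-1, and at 12.3 against 11.3 and 15.6 TPM in TOV21G. FAS was thus above control with both hairpins in PA-1, and on either side of it in TOV21G. These 3 neighbours, and NEAT1 and MALAT1 below, were chosen after their values were seen. The nuclear RNA NEAT1 was 2.27 and 2.29 times its PA-1 control and 3.14 and 2.96 times its TOV21G control in CPM. MALAT1, another nuclear RNA, was 1.43 and 1.22 times control in PA-1 and 2.19 and 4.28 times in TOV21G. The part of any of these in the ACTA2 values was not tested. Other genes of the 10 also share bases with genes on the other strand, TAGLN with PCSK7 (446 bases), TPM1 with TPM1-AS (3354), MYL9 with DLGAP4-AS1 (9964) and VCL with AP3M1 (1109). TPM1-AS was above control in all 4 hairpin libraries, as TPM1 was, at 3.42 and 2.51 against 1.68 TPM in PA-1 and 6.46 and 9.11 against 5.39 TPM in TOV21G. PCSK7 was at 27.9 and 23.1 against 23.5 TPM in PA-1 and at 39.4 and 27.1 against 16.7 TPM in TOV21G. AP3M1 stood at 50.5 to 79.5 TPM and DLGAP4-AS1 at 0 to 1.78 TPM. Their part in these values was not tested either.

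ACTG2, the enteric smooth muscle gamma actin, was close to undetected. Its counts were 4 in the PA-1 control, 23 with hairpin 1 and 1 with hairpin 2, and 2, 4 and 2 in TOV21G. Only the PA-1 hairpin 1 library stood apart, at 2.69 TPM, with 5.54 times the control CPM (95% exact counting interval 1.89 to 22.05). With 4 counts in the control this ratio is imprecise. ACTA1 and ACTC1, the striated muscle actins, were at their PA-1 highest in that library too, at 11.3 against 2.48 TPM and 7.07 against 1.24 TPM. In TOV21G, ACTC1 held 0 counts in the control against 10 and 101 with hairpins 1 and 2, while ACTA1 held 2, 0 and 0 counts. These 4 muscle actins are close in sequence, so reads may have been divided between them. The cytoplasmic actins ACTB and ACTG1, which make up most actin in non-muscle cells, stood far higher. ACTB was at 3718, 4886 and 4583 TPM in the PA-1 control, hairpin 1 and hairpin 2 libraries. In TOV21G it was at 4802, 4348 and 4507 TPM.

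**Figure D3:**
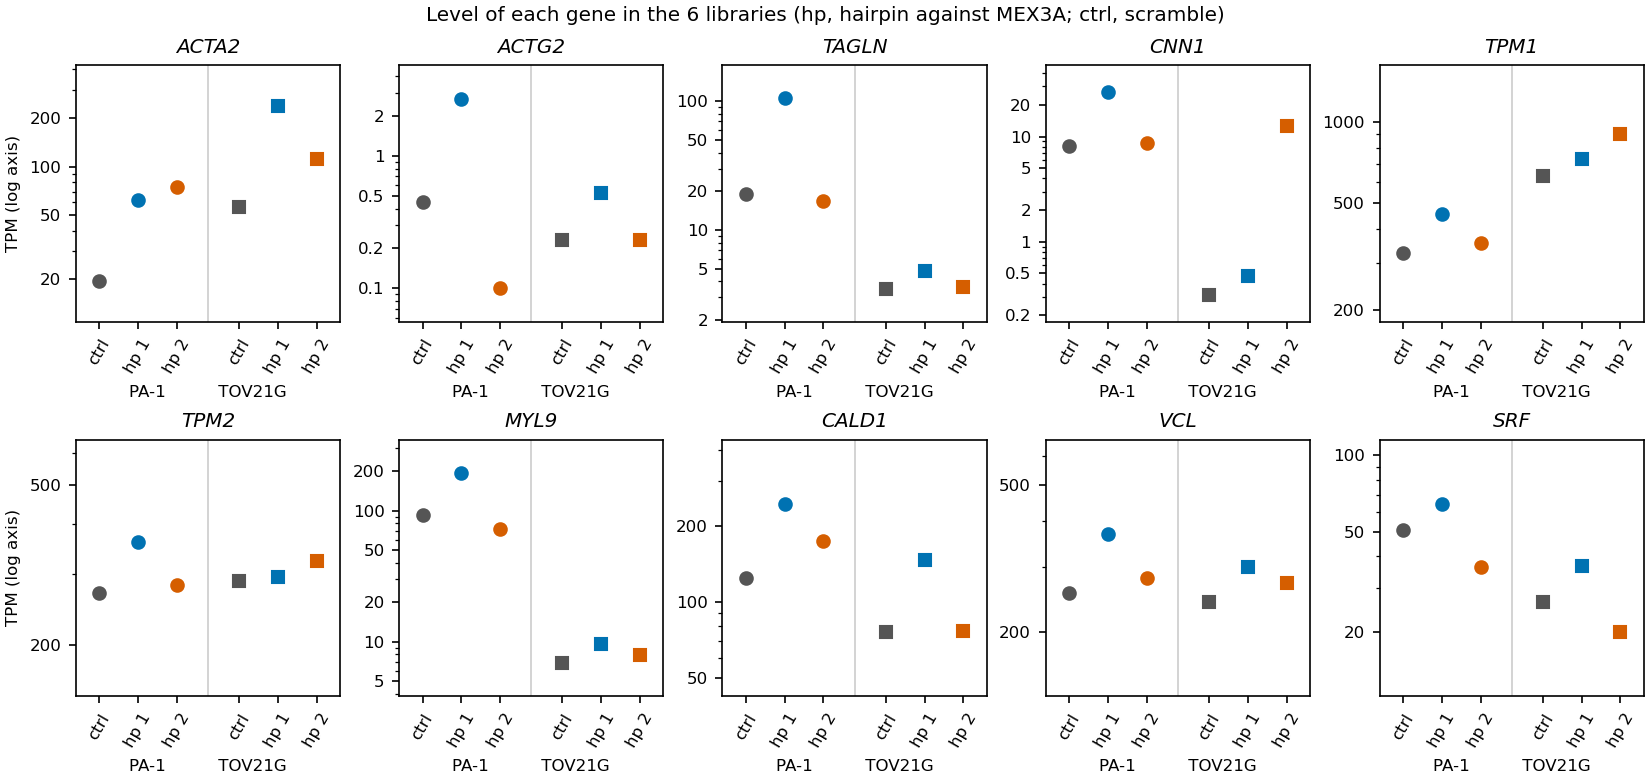
TPM of the 10 genes in each of the 6 libraries (log axis, scaled separately for each gene), with controls in grey, hairpin 1 in blue and hairpin 2 in orange, PA-1 as circles and TOV21G as squares. ACTA2 runs from 19.6 TPM in the PA-1 control to 236 TPM in TOV21G with hairpin 1, whereas TAGLN peaks at 106 TPM in PA-1 with hairpin 1.

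TAGLN, or transgelin, an actin-crosslinking protein and early marker of smooth muscle, was high in 1 library. PA-1 had 19.1 TPM in the control against 106 and 16.8 TPM with hairpins 1 and 2. In TOV21G, in the same order, it was at 3.48, 4.83 and 3.64 TPM. The PA-1 hairpin 1 library held 5.22 times the control CPM (95% exact counting interval 4.74 to 5.76), and hairpin 2 lay on the other side of the control at 0.886 times (0.783 to 1.00). The fitted change in PA-1 was 1.61 (SE 1.03), and without the hairpin 1 library it was -0.17. TOV21G gave 0.18 (SE 1.02). The hairpins of PA-1 thus differed from each other more than their mean differed from the control.

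CNN1, calponin, which binds actin and tropomyosin in differentiated smooth muscle, was high in 1 library of each line, and with a different hairpin in each. PA-1 had 8.16 TPM in the control against 26.5 and 8.59 TPM with the hairpins. TOV21G had 0.31, 0.47 and 12.5 TPM, from 3, 4 and 123 counts. The PA-1 hairpin 1 ratio was 3.08 (95% exact counting interval 2.37 to 4.05). The TOV21G hairpin 2 ratio was 42.4, with an interval of 14.2 to 208 against the 3 counts of its control. In that library ACTC1 was also at its highest, at 11.7 TPM. edgeR fitted 1.04 (SE 1.65) in PA-1 and 4.40 (SE 2.38) in TOV21G, and the mean of both was 2.72 (SE 1.46). Without TOV21G hairpin 2 the difference between the lines turned from positive to -0.62.

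MYL9, the regulatory myosin light chain whose phosphorylation switches on contraction, followed TAGLN in PA-1. The PA-1 control had 91.9 TPM, hairpin 1 had 194 TPM and hairpin 2 had 72.2 TPM. The TOV21G levels were 6.90, 9.63 and 7.96 TPM, below every PA-1 library. The PA-1 log2 differences were 1.00 and -0.34, and those in TOV21G 0.29 and 0.21. edgeR gave 0.48 (SE 0.56) in PA-1 and 0.26 (SE 0.59) in TOV21G, and without PA-1 hairpin 1 the first turned to -0.34. CALD1, caldesmon, which restrains actin-activated myosin, was higher with both PA-1 hairpins and with 1 of the TOV21G hairpins. It was at 124, 244 and 174 TPM in the PA-1 control, hairpin 1 and hairpin 2 libraries. The TOV21G values were 75.9, 146 and 76.3 TPM. Its fitted changes were 0.72 (SE 0.40) and 0.46 (SE 0.39), and 0.59 (SE 0.28) in the mean. The TOV21G hairpin 2 library did not differ from its control beyond counting error (ratio 1.04, 95% exact counting interval 0.984 to 1.10).

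TPM1, TPM2 and VCL were the most abundant of the 10 genes in both lines, and no hairpin library held more than 1.45 times the control CPM of any of them. TPM1, the tropomyosin that stabilises actin filaments, was at 326, 455 and 356 TPM in PA-1 and at 631, 730 and 903 TPM in TOV21G, in the order control, hairpin 1, hairpin 2. TPM2, beta tropomyosin, was at 269, 360 and 282 TPM in PA-1 and at 289, 295 and 324 TPM in TOV21G. VCL, vinculin, which ties actin to integrin and cadherin adhesions, was at 255, 368 and 280 TPM in PA-1 and at 242, 301 and 272 TPM in TOV21G. In PA-1 hairpin 1 gave the highest value of all 3 genes. Their log2 differences ran from 0.11 to 0.46 in PA-1 and from -0.18 to 0.53 in TOV21G. The lowest, TPM2 with hairpin 1 in TOV21G, was -0.18 in log2 CPM and 0.03 in log2 TPM, so its direction depended on the scale. Fitted changes in the mean of both lines were 0.31 (SE 0.21) for TPM1, 0.11 for TPM2 and 0.23 (SE 0.18) for VCL.

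SRF, the transcription factor itself, was above control with hairpin 1 and below it with hairpin 2 in both lines. The PA-1 control had 50.8 TPM, against 64.3 and 36.2 TPM with hairpins 1 and 2. The TOV21G libraries had 26.3, 36.6 and 20.1 TPM. The log2 differences were 0.28 and -0.49 in PA-1 and 0.28 and -0.45 in TOV21G, nearly the same pair of values. Of all genes tested, 646 (3.83%) had this arrangement in both lines, and SRF was the 1 of the 10 that did. Knockdown against control therefore came out near 0, at -0.06 (SE 0.46) in PA-1 and -0.04 (SE 0.46) in TOV21G, and its sign changed when 1 hairpin was left out. The pattern was followed up with a term for hairpin 2 against hairpin 1 over both lines, added after the SRF values were seen. It gave -0.75 for SRF (SE 0.22, unadjusted p = 0.00739, adjusted p = 0.293 by edgeR).

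The same term gave -1.48 for TAGLN (SE 0.50, adjusted p = 0.357 by edgeR), -0.76 for MYL9 (SE 0.31, adjusted p = 0.429) and -0.56 for CALD1 (SE 0.23, adjusted p = 0.426). It called 0 of the 10 genes and 16 of all genes (0.0949%), and 4 of the 10 had an unadjusted p under 0.05, against 11% of all genes, with SRF among the 4 having prompted the term. Hairpin 2 minus hairpin 1 was -2.55 in PA-1 and -0.19 in TOV21G for TAGLN, and -1.34 and -0.08 for MYL9. For CALD1 it was -0.41 and -0.72, and for SRF -0.77 and -0.73. The TAGLN and MYL9 terms thus came mostly from PA-1. Hairpin 1 stood above hairpin 2 in both lines for TAGLN, MYL9, CALD1 and SRF (29.4% of all genes). The reverse order in both lines was held by 0 of the 10 (29.5%). ACTG2 had the same order, from 23 against 1 counts and 4 against 2 counts, and is not read against that share. For ACTA2 the term was -0.23 (SE 0.32), with opposite signs in the lines (0.43 in PA-1 and -0.87 in TOV21G). MEX3A gave 0.07 (SE 0.25). Single hairpins also differed in how many of the 10 were above control, 10 with hairpin 1 (48.4% of all genes) and 6 with hairpin 2 (48.9%) in PA-1. The first count includes ACTG2, which passed the low count filter through the PA-1 hairpin 1 library, so ACTG2 is not read against that share. In TOV21G the counts were 9 and 9 (47.8% and 48.6%). At least 2-fold higher in PA-1 hairpin 1 were ACTA2, TAGLN and CNN1 (5.59% of all genes). ACTG2 was too, but it is left out of this reading because it passed the low count filter through that library alone. The other 3 libraries had ACTA2 alone in PA-1 hairpin 2 (6.95%) and in TOV21G hairpin 1 (8.71%), and ACTA2 with CNN1 in TOV21G hairpin 2 (12.4%).

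The lines were set side by side in TPM. In the controls the order in PA-1 was TPM1, TPM2, VCL, CALD1, MYL9, SRF, ACTA2, TAGLN, CNN1 and ACTG2, where 5 of the 9 pairs of neighbours (TPM1 and TPM2, TPM2 and VCL, CALD1 and MYL9, ACTA2 and TAGLN, TAGLN and CNN1) differed by a smaller ratio than the 3 libraries of each gene did among themselves. In TOV21G it was TPM1, TPM2, VCL, CALD1, ACTA2, SRF, MYL9, TAGLN, CNN1 and ACTG2, and 2 of the 9 pairs (CALD1 and ACTA2, CNN1 and ACTG2) lay within that spread. All 3 PA-1 libraries lay above all 3 TOV21G libraries in TPM for TAGLN and MYL9, 2 of 10 genes against 34.9% of all genes. All 3 lay below for TPM1 alone (24.7%). With 1 control per line these are values with no test. The mean transcript length that RSEM assigned also lay apart in the lines, without overlap, for 4 of the 10 genes, against 19.6% of all genes tested and 25.5% of those with several transcripts. For TPM1, which has 32 transcripts in the tables, it was 1742 to 1761 bases in PA-1 and 1816 to 1888 in TOV21G. For TPM2, with 10 transcripts, it was 1083 to 1105 and 1117 to 1138 bases. TAGLN and MYL9 were the other two, at 3815 to 3827 against 3840 to 3881 bases and at 2784 to 2786 against 2771 to 2783 bases. No gene of the 10 passed the test of whether the knockdown effect differed between TOV21G and PA-1, and ACTA2 gave -0.24 there (SE 0.62).

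Of the partners of SRF, 8 of 8 were measured, 0 passed edgeR or DESeq2 in any comparison (0 at an unadjusted p under 0.05), and 0 stood above or below control in all 4 hairpin libraries (14.3% and 15% of all genes). MRTFA was above in 3 of them and level with control in PA-1 hairpin 2 (-0.0018, or 0.0085 with total counts in place of TMM, which would make it 1 of 8). MRTFA was at 20.5, 23.4 and 20.4 TPM in PA-1 and at 19.1, 31.5 and 22.6 TPM in TOV21G, in the same order. MRTFB was at 30.7, 30.2 and 29.2 TPM and at 21.7, 26.7 and 16.9 TPM. MYOCD, the coactivator of cardiac and smooth muscle, was at 2.19, 6.09 and 3.81 TPM in PA-1 and listed at 0 in all 3 TOV21G libraries.

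Of 38 other actin and contractile genes linked to SRF, 26 were above control with both hairpins in PA-1 and 4 below, and in TOV21G 13 were above and 14 below. Over all genes tested, 33.8% were above and 34% below in PA-1, and 31.3% and 31.9% in TOV21G, so the TOV21G count was near the background. Across all 4 hairpin libraries 12 were above and 2 below (14.3% and 15% of all genes). Their median log2 differences were 0.33 and 0.09 in PA-1 and -0.07 and 0.12 in TOV21G. edgeR called 0 of them in any comparison (3 in PA-1, 6 in TOV21G and 7 in the mean at an unadjusted p under 0.05, against 2.57%, 9.56% and 8.21% of all genes). DESeq2 called FLNC and MICAL2 as higher in TOV21G (1.28% of all genes called), and FLNC and FBLIM1 in the mean of both lines (0.801%). FLNC, the muscle filamin that crosslinks actin, was the 1 gene of this list at least 2-fold higher in all 4 hairpin libraries, as ACTA2 was among the 10. It was at 24.4, 89.9 and 108 TPM in PA-1 and at 3.64, 16.0 and 71.0 TPM in TOV21G. DESeq2 gave it an adjusted p of 0.000288 in the mean, where edgeR gave 2.78 (SE 0.73, adjusted p = 0.553).

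FBLIM1, a filamin-binding adapter at adhesions, was at 3.62, 14.4 and 11.01 TPM in PA-1 and at 32.6, 62.6 and 50.8 TPM in TOV21G. MICAL2, a redox enzyme that depolymerises nuclear actin, was at 1.45, 2.62 and 1.53 TPM in PA-1 and at 40.7, 102 and 126 TPM in TOV21G. Other genes of the list went the other way. MYLK, the kinase that phosphorylates MYL9, was lower in all 4 hairpin libraries, at 16.3 and 16.0 against 20.9 TPM in PA-1 and 86.6 and 74.5 against 148 TPM in TOV21G. It passed neither edgeR nor DESeq2 (mean -0.72, SE 0.16, adjusted p = 0.547 by edgeR and 0.100 by DESeq2). ACTG1 was at 4536 TPM in the TOV21G control against 2148 and 3338 TPM with the hairpins, and at 3024 against 3255 and 3209 TPM in PA-1.

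A list drawn up for the ternary complex arm held 14 immediate early genes, and which SRF arm drives each was not tested. Of these genes, 14 of 14 were above control with both hairpins in PA-1 (33.8% of all genes). Some of the 14 lay within counting error there. With hairpin 1 the FOS ratio was 1.08 (exact counting interval 0.861 to 1.36) and that of IER2 1.06 (0.956 to 1.18). With hairpin 2 EGR3 was at 1.08 (0.829 to 1.42) and FOSB at 1.04 (0.344 to 3.28). In TOV21G 9 of the 14 were above and 1 below (31.3% and 31.9%). FOSB was among those above, with a hairpin 1 ratio of 3.05 (0.923 to 13.0). The medians of the 14 genes were 0.65 and 0.97 in PA-1 and 0.33 and 1.06 in TOV21G, and in both lines the hairpin 2 median was the higher. edgeR called 0 of them in any comparison (3 in PA-1, 3 in TOV21G and 3 in the mean at an unadjusted p under 0.05, against 2.57%, 9.56% and 8.21% of all genes). DESeq2 called FOSL1, CCN1 and CCN2 in the mean of both lines (0.801%). CCN1, a matricellular protein also driven by YAP, was at 31.6, 121 and 286 TPM in PA-1 and at 169, 356 and 1453 TPM in TOV21G. CCN2, connective tissue growth factor, was at 49.8, 190 and 230 TPM and at 39.3, 84.9 and 239 TPM. FOSL1, an AP-1 subunit, was at 20.5, 45.9 and 56.3 TPM and at 36.1, 68.6 and 77.8 TPM. Each of the 3 was higher with hairpin 2 than with hairpin 1 in both lines, the reverse of SRF.

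**Figure D4:**
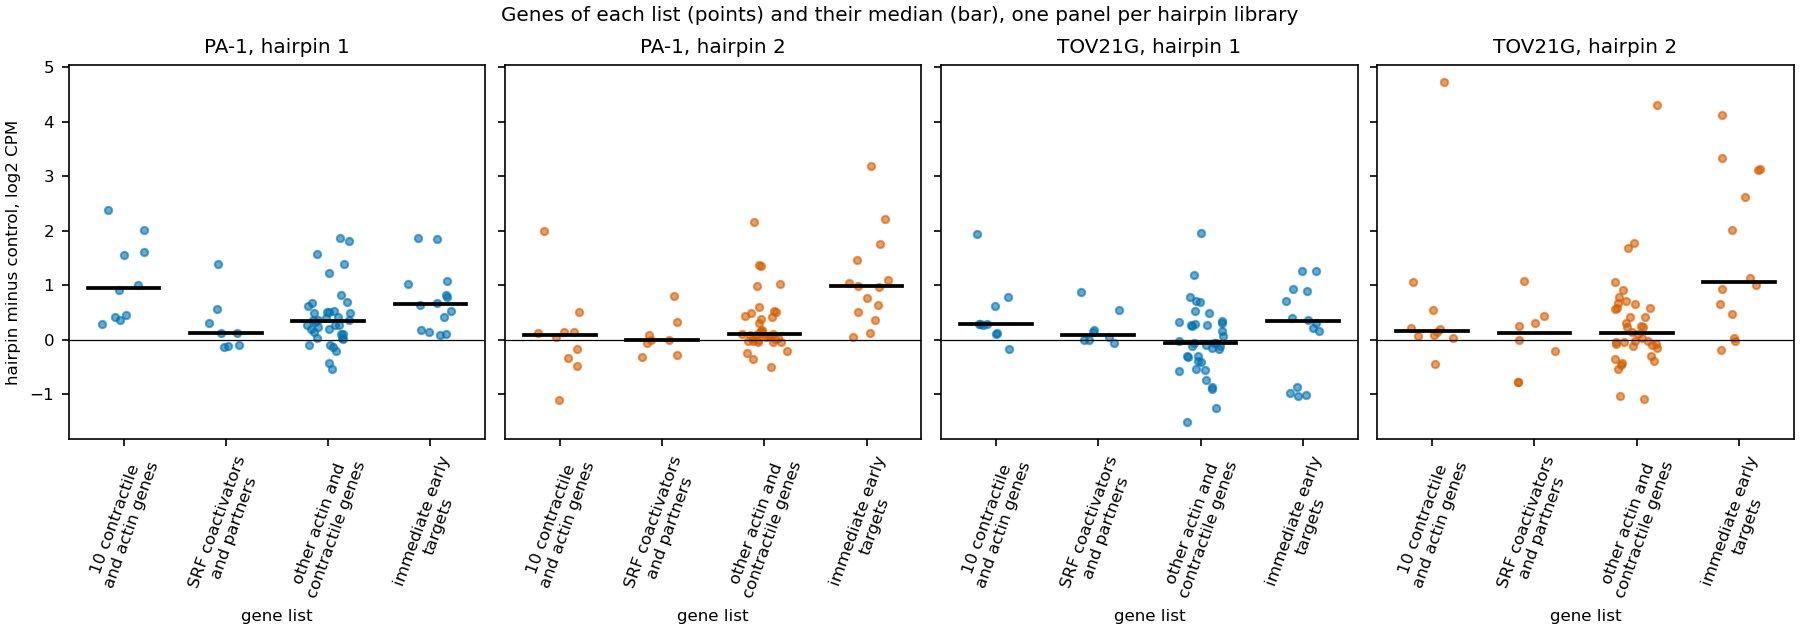
Log2 CPM of each gene minus the control of its line (points) with the list median (bar), in 1 panel for each of the 4 hairpin libraries, for the 10 genes and for 3 lists linked to SRF. The median of the 10 genes is highest in PA-1 with hairpin 1 (0.95), and that of the immediate early genes in TOV21G with hairpin 2 (1.06).

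Markers of other cell types were read beside these values. Without ACTA2 and CNN1, which are members, the other 9 smooth muscle differentiation markers summed to 50.4 TPM in the PA-1 control against 59.4 and 50.4 TPM, and to 22.8 TPM against 36.6 and 38.2 TPM in TOV21G. MYH11, the smooth muscle myosin that defines the mature cell, was at 0.12 to 0.23 TPM in all 6 libraries. DES, desmin, was at 9.65 to 12.8 TPM in PA-1 and at 0 to 0.38 TPM in TOV21G. SMTN was at 0.774 and 0.677 times its PA-1 control in CPM and at 1.89 and 2.12 times its TOV21G control. SYNPO2 was at 0.688 and 1.06 times and at 7.69 and 3.69 times, from 0.909 CPM in the TOV21G control. Of all 11 markers, with ACTA2 and CNN1, 6 were above and 3 below control with both hairpins in PA-1 (33.8% and 34% of all genes). In TOV21G 5 were above and 1 below (31.3% and 31.9%). The 12 fibroblast and pericyte markers summed to 464 TPM in the PA-1 control against 459 and 505 TPM. In TOV21G they summed to 1046 TPM against 2080 and 804 TPM. COL1A1, RGS5, CSPG4 and PDGFRB, given below, were each at 94.7 TPM or less in TOV21G, so that sum came mostly from other markers. It is not read as a change of the whole list. S100A4, 1 of the 12, moved in the same order as the TOV21G sum, at 133 CPM in the control against 227 and 81.2 CPM. In PA-1 S100A4 was at 36.6 against 26.0 and 25.1 CPM. Of the 12, DESeq2 called COL1A1 and RGS5 in the mean of both lines (0.801% of all genes). COL1A1, a fibrillar collagen, was at 34.2, 73.9 and 47.4 TPM in PA-1 and at 3.10, 40.5 and 63.6 TPM in TOV21G, in the order control, hairpin 1, hairpin 2. RGS5, a pericyte marker, was at 23.8, 42.0 and 50.4 TPM and at 39.6, 94.7 and 91.9 TPM, and CSPG4, another, at 7.09, 11.2 and 12.2 TPM and at 0.51, 1.00 and 1.21 TPM. Of the 9 markers of this list that were tested, these 3 were above control in all 4 hairpin libraries (14.3% of all genes). In all 4, 0 were below (15%). PDGFRB, also a pericyte marker, was at 5.78, 2.82 and 3.38 TPM in PA-1 and at 0 to 0.05 TPM in TOV21G. THY1 had log2 CPM differences of 0.36 and 1.62 in PA-1 and -1.28 and -2.09 in TOV21G, where its control was at 0.974 CPM. The 13 striated muscle markers summed to 48.6 against 60.8 and 47.2 TPM in PA-1 and to 49.4 against 26.5 and 59.3 TPM in TOV21G, with 3 of 13 at 0 in each PA-1 library and 6 or 7 of 13 in TOV21G. KRT8, an epithelial keratin, was at 213 against 262 and 310 TPM in PA-1 and at 74.8 against 157 and 124 TPM in TOV21G. The 8 teratocarcinoma stem cell markers summed to 3251 against 3789 and 4184 TPM in PA-1, where POU5F1 was at 891 against 2106 and 2395 TPM while LIN28A was at 1740 against 1118 and 1242 TPM and SOX2 at 382 against 319 and 294 TPM. In TOV21G they summed to 22.6 against 44.6 and 54.6 TPM. The 8 endothelial and blood markers summed to 74.6 against 69.6 and 126 TPM in PA-1 and to 3.27 against 3.98 and 10.1 TPM in TOV21G. In bulk RNA, more cells of a type and more RNA per cell cannot be told apart, and the part of these markers in the contractile gene values was not tested.

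By the Euclidean distance of the 4 hairpin differences from the median of the 10 genes, over 9989 genes, the nearest were PTBP2 (distance 0.23), CCDC18-AS1 (0.30), PDLIM5 (0.35), SIRT7 (0.36) and ZNF497 (0.38). PTBP2 is a splicing regulator, PDLIM5 an actin-associated LIM protein and SIRT7 a nucleolar deacetylase. PDLIM5, for example, gave 0.61 and 0.01 in PA-1 and 0.27 and 0.23 in TOV21G. These genes were picked for nearness to the median of the 10, so a likeness to it follows from the choice. That median includes ACTG2, which passed the low count filter through PA-1 hairpin 1.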

How the data were processed

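RSEM gene tables, 1 per library, hold the expected count, TPM, FPKM and transcript lengths in bases that the authors deposited, per the file headers. Per the submitters' processing notes, cutadapt 1.12, STAR 2.5.3a, RSEM 1.2.31, edgeR 3.26.8 and hg38 were named, without roles. The strand setting of the counting is not given in the sources used here.

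The expected counts, after rounding, were fitted in R 4.3.3 with edgeR 4.0.16 (TMM, filterByExpr on 4 groups, quasi-likelihood F test, 1 mean per group, 2 residual degrees of freedom, coefficient of biological variation 0.295, Benjamini-Hochberg adjustment over 16855 genes, threshold 0.05). Each line's single control was assumed to vary as the hairpins did. DESeq2 1.42.0 was an alternative, with TPM (pseudocount 0.5) and a prior count of 0.5 as others. A standard error (SE) was derived from the log2 change and its F statistic. A count of 0 allows up to 3 counts, or 0.153 to 0.202 CPM. Scripts were tested on simulated data. The members and gene lists were chosen with earlier results of these data known. Genes named by rule were the 10, MEX3A, preset genes of the lists, list genes called by a tool, and the 5 nearest by distance. Those 5 came from genes with a mean of at least 5 CPM in each line. Other genes named above were not preset and fall outside this rule. They include POU5F1, LIN28A, SOX2, KRT7, KRT18, CDH1, EPCAM, CSPG4, S100A4, THY1, SMTN, SYNPO2, FOS, FOSB, EGR3 and IER2. The genes on the other strand, NEAT1 and MALAT1 fall outside it too. Some genes and lists measured are not reported here.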

Additional observations from a re-analysis of the deposited data

Results flagged for a closer look

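For 6 of 43 genes compared between the lines, both hairpins lay on one side of the control in PA-1 and both on the other side in TOV21G, an arrangement that 2474 of 16855 genes tested (14.7%) had. The count of 6 was near that share of all genes. The 43 were the 10 contractile genes, MEX3A and the preset genes of the lists. Other list genes were not screened. The fitted TOV21G effect less that of PA-1, in log2 units by edgeR, was -0.51 for ACTB, -0.85 for ACTG1, -0.40 for FLNA, -1.21 for TGFB1I1 and -0.50 for DIAPH1. It was 4.75 for PDGFRB, a fitted value that depends on the prior count, since TOV21G held at most 2 counts of it in any library. The difference itself was tested with edgeR and passed for none of the 6 (adjusted p = 1.00 each). Both hairpins of a line share its 1 control library, so each arrangement rests on 2 control libraries. ACTG1, cytoplasmic gamma actin, had hairpin differences of 0.03 and 0.09 in PA-1 and -1.26 and -0.43 in TOV21G. ACTB, cytoplasmic beta actin, had 0.31 and 0.31 against -0.32 and -0.08. FLNA, a filamin, had 0.51 and 0.14 against -0.10 and -0.03. In log2 TPM the FLNA difference with TOV21G hairpin 1 was 0.08, so its side depended on the scale. TGFB1I1, a focal adhesion protein, had 1.38 and 0.43 against -0.40 and -0.04. DIAPH1, a formin, had 0.04 and 0.03 against -0.49 and -0.42.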

How the results depend on the processing

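edgeR called 0 genes in each comparison. DESeq2 called 36 in PA-1, 215 in TOV21G, 135 in the mean of both lines and 19 in the difference. With the hairpin number as a replicate block, edgeR called 13, 36 and 22 in the first 3. The numbers name the same reagent in both lines (r = 0.236 across 16855 genes for the hairpin 1 minus hairpin 2 difference) and pair nothing else. Leaving out 1 hairpin library gave 0 calls in PA-1, 0 to 1489 in TOV21G and 0 to 526 in the mean. The highest of each came without TOV21G hairpin 1, where the spread comes from the PA-1 hairpins. Counts of genes at least 2-fold different with both hairpins moved with TPM, from 566 to 316 higher and 115 to 40 lower in PA-1 (181 lower with a prior count of 0.5), and from 718 to 421 higher and 567 to 287 lower in TOV21G. ACTA2 and MEX3A passed in the mean by DESeq2 (adjusted p = 0.00135 and 0.00135) and without TOV21G hairpin 1 by edgeR (0.0392 and 0.0385). Leaving out 1 hairpin library turned the sign of some knockdown effects, with ranges of -0.17 to 2.39 for TAGLN and -0.34 to 1.00 for MYL9 in PA-1, -0.49 to 0.28 for SRF in PA-1, -0.45 to 0.27 for SRF and -0.19 to 0.13 for TPM2 in TOV21G, and -0.044 to 0.63 for MYL9 and -0.27 to 0.12 for SRF in the mean. For the difference between lines the ranges were -0.74 to 0.13 for ACTA2, -2.21 to 0.35 for TAGLN, -0.62 to 4.35 for CNN1, -0.20 to 0.24 for TPM1, -0.74 to 0.60 for MYL9, -0.66 to 0.054 for CALD1, -0.30 to 0.016 for VCL and -0.40 to 0.45 for SRF. With total counts in place of TMM, the difference was -0.0047 for TPM1 and -0.0073 for SRF, and with no low count filter it was -0.0096 for SRF. The cause was not tested. Depth limits ACTG2 in all libraries and CNN1 in the TOV21G control and hairpin 1 libraries, at 4 counts or fewer except for ACTG2 in PA-1 hairpin 1.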
